A study of Mus musculus with 16 samples.

Results

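A set of 7 sterol genes was followed in gonadal white adipose tissue (gWAT) of mice with and without *Mboat7* in adipocytes. They were picked by name for their place in the pathway, and not by a threshold on these values, as 7 of the 19353 gene symbols of the expression table. Earlier results of these data were known when they were picked. *Hmgcs1*, *Idi1*, *Fdft1*, *Sqle* and *Lss* encode enzymes of sterol synthesis, and *Insig1* and *Srebf2* encode regulators of the pathway. No uptake receptor is among them, and uptake is covered below by a separate list of genes. All 7 are in the table, and 6 reached 1 FPKM, a fragment count scaled to transcript length and to the size of the library, in at least 4 mice and were tested. *Idi1* was below this limit.

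RNA was sequenced from 16 male mice on the C57Bl6/J background. All mice carried floxed *Mboat7* alleles. Control mice (*Mboat7* flox/flox, labelled Flox) had no further change, and *Mboat7* ASKO mice (labelled FloxCre) also carried Cre driven by the adiponectin promoter, which acts in adipocytes and leaves the gene in the other cells of the fat pad. There were 4 mice of each genotype on chow (Teklad TD:130104 by the labels, while the methods of the study name another Teklad chow) and 4 of each on a high-fat diet (HFD, Research Diets D12492), each for 20 weeks and each mouse its own library. Mice carry the numbers 0 to 3 of their labels within each group, and their values are given in that order. The tissue was bulk gWAT. A lower value can therefore stand for fewer cells of a type or for less RNA per cell, which cannot be told apart.

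*Mboat7* itself was low. On chow it was at 2.42, 4.33, 0.902 and 4.99 FPKM in control mice and at 0, 1.39, 0 and 2.89 FPKM in *Mboat7* ASKO mice (two-sided exact permutation test, p = 0.143), and on HFD the groups overlapped as well (exact permutation test, p = 1). Values this low cannot show how far the gene was deleted. The study reported less MBOAT7 protein in gWAT of chow-fed *Mboat7* ASKO mice. The steps between low values put the depth, on the scale of the table, at 257000 to 433000 fragments per mouse. The 10 highest rows held 32.6% to 55.2% of the FPKM sum of a mouse, and a single row held over 30% in 2 HFD mice, control mouse 1 (32.6%) and ASKO mouse 3 (31.4%). Among the 50 rows with the highest mean, 88.0% had exons that overlap those of a gene on the opposite strand, against 33.4% of all rows. The library kit keeps strand, and whether strand entered the counting is not given in the sources used here. Rows with such an overlap are uncertain for this reason, among the sterol genes those of *Fdft1*, *Hmgcs1*, *Idi1* and *Lss*. Counts and medians of sterol genes below include such rows. How far reads of the opposite strand entered any row was not tested.

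Cells make cholesterol from acetyl-CoA by way of mevalonate, isoprenoids and squalene. The genes for these enzymes are switched on together by SREBP-2, the product of *Srebf2*, which stays in the endoplasmic reticulum while sterols are plentiful and moves to the nucleus when they are scarce. INSIG1 is the anchor that holds the SREBP escort protein in the endoplasmic reticulum, and its own gene is a target of the same factors. Adipocytes take up much of their cholesterol from lipoproteins and store free sterol in the lipid droplet, and macrophages of obese fat also handle large amounts of sterol.

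The promoter letters through which SREBP proteins and their partners are known to act can be looked up for the genes with a RefSeq promoter window, which runs from 250 bases before to 50 bases after the start (GRCm38.p6). Of the 7 genes, 5 had one, all but *Sqle* and *Fdft1*. The core of a sterol response element, TCACNCCAC on either strand, was found in 1 of the 5 windows, that of *Hmgcs1*, against 1.24% of all 32851 windows. A CCAAT box was in 5 of 5 windows against 37.4% of all windows, and the GC box GGGCGG was in 5 of 5 against 35.7%. A match of letters is a description of the sequence and no measure of binding. The plus strand upstream of the *Hmgcs1* and *Insig1* genes is shown because these genes varied together among mice, and capitals mark the sterol response element core (TCACCCCAC) and the CCAAT boxes (ATTGG on this strand).
Hmgcs1, chr13:119690101-119690350: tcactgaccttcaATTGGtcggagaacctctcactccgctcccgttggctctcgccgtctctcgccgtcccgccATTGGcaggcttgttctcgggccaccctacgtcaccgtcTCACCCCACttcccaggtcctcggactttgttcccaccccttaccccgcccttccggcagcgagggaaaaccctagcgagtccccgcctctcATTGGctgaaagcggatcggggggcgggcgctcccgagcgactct
Insig1, chr5:28071162-28071362: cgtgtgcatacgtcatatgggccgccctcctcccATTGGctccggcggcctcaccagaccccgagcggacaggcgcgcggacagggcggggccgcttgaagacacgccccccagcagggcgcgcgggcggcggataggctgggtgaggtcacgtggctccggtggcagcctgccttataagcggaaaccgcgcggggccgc
Counted from the RefSeq start, the sterol response element core of *Hmgcs1* lies at -137 to -129, and the marked CCAAT box of *Insig1* lies at -216 to -212.

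The 7 genes spanned a wide range of levels per length. In every group *Fdft1* was highest, above *Hmgcs1*, *Insig1* and *Sqle*, and *Lss*, *Srebf2* and *Idi1* were near the lower limit of the table. *Fdft1* did not overlap with the next gene in any group. *Hmgcs1* and *Insig1* overlapped in all 4 groups, *Insig1* and *Sqle* overlapped on chow and not on HFD, and *Sqle* lay above *Lss* without overlap in each group. The order of *Lss*, *Srebf2* and *Idi1* could not be told from their spread, except that *Srebf2* lay above *Idi1* in control mice on HFD. By the steps between low values, a value of *Srebf2* rested on at most 5.4 fragments in a mouse and one of *Idi1* on at most 3.8, while *Sqle* rested on 5.4 to 31.3, *Insig1* on 9.6 to 126.6 and *Hmgcs1* on 21.7 to 142.7 fragments.

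**Figure D1:**
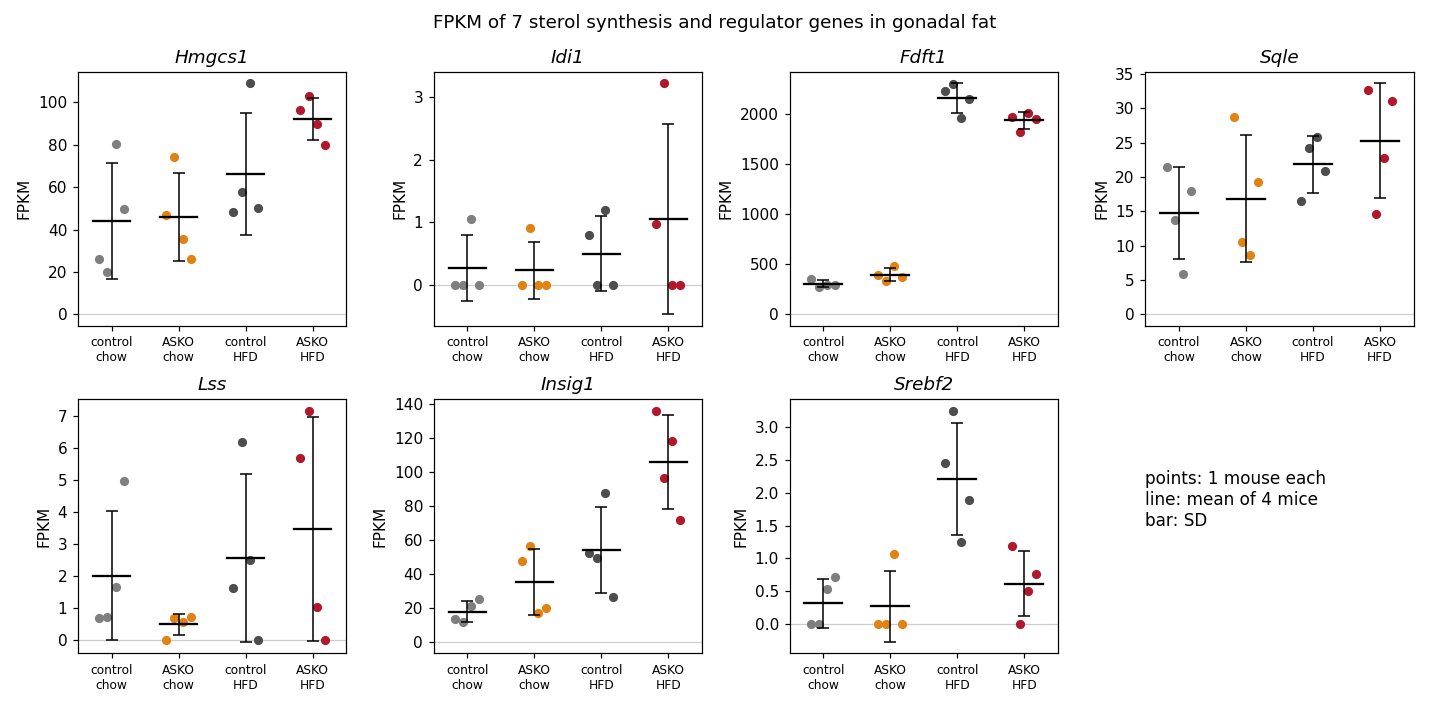
FPKM of the 7 sterol genes (linear vertical axes, each with its own scale) in the 4 groups of gWAT; each point is 1 mouse, the line is the mean of 4 mice and the bar the SD. *Fdft1* and *Insig1* are higher in every HFD mouse than in every chow mouse of the same genotype, and *Idi1*, *Lss* and *Srebf2* stay below 8 FPKM.

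The first comparison was that of HFD with chow in each genotype, which shows what 20 weeks of the diet did to sterol gene expression in this tissue. *Fdft1* and *Insig1* rose on HFD, *Fdft1* 7.14-fold in control mice and 4.91-fold in *Mboat7* ASKO mice by the ratio of means, and *Insig1* about as much in each genotype (3.06-fold in control and 3-fold in *Mboat7* ASKO mice). In control mice 1 of the 6 tested genes passed (*Fdft1*), in a contrast in which 2.91% of all 13147 tested genes were called in either direction and 1.81% were called higher. In *Mboat7* ASKO mice 2 passed (*Fdft1* and *Insig1*), where 3.43% of all genes were called and 2.13% were higher. With the diet difference averaged over the genotypes the same 2 genes passed, where 7.53% of all genes were called and 4.49% were higher. A gene passed at a Benjamini-Hochberg adjusted p below 0.05 in limma with an absolute log2 fold change above 0.5, and fold changes are on the log2(FPKM + 1) scale, which understates the change of low genes. The fitted diet difference was positive for 6 of 6 tested genes in each of these contrasts, with a median of 1 in control mice, 1.12 in *Mboat7* ASKO mice and 0.86 averaged, beside medians of 0, 0.03 and 0.01 over all tested genes. Because the genes were picked with earlier results known, these medians are a description only.

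*Fdft1* (ENSMUSG00000021273.9, chromosome 14 of mm10 from 63145150 to 63179578, minus strand) encodes squalene synthase, which joins farnesyl diphosphate into squalene at the step that commits isoprenoids to sterols. On chow it was at 354, 273, 291 and 294 FPKM in control mice and at 394, 332, 483 and 370 FPKM in *Mboat7* ASKO mice. The HFD values were 2231, 2301, 1959 and 2159 FPKM in control mice and 1971, 1823, 2016 and 1950 FPKM in *Mboat7* ASKO mice. Every HFD mouse was far above every chow mouse, and the lowest HFD value (1823 FPKM) and the highest chow value (483 FPKM) came from *Mboat7* ASKO mice. On the log2 scale the rise was 2.84 ± 0.18 (standard error; limma adjusted p = 1.75e-07) in control mice and 2.31 ± 0.18 (standard error; limma adjusted p = 1.14e-06) in *Mboat7* ASKO mice. By p-value *Fdft1* ranked 1 of 13147 genes in control mice, 4 in *Mboat7* ASKO mice and 2 in the averaged contrast.

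The *Fdft1* values are uncertain in their source. Its exons overlap those of *Ctsb*, which encodes the lysosomal protease cathepsin B on the opposite strand, over 774 bases or 18.3% of the exon bases of *Fdft1*, and the table gives both genes 1 shared locus. Without a known strand setting, reads of the overlap cannot be assigned to either gene. *Ctsb* was at 90.2, 130, 94.1 and 132 FPKM in control mice and 74.1, 119, 99.8 and 99.6 FPKM in *Mboat7* ASKO mice on chow. On HFD *Ctsb* was at 222, 278, 237 and 223 FPKM in control mice and at 318, 399, 285 and 299 FPKM in *Mboat7* ASKO mice. *Ctsb* thus also rose on HFD, by 1.11 in control mice (limma adjusted p = 0.0102) and by 1.73 in *Mboat7* ASKO mice (limma adjusted p = 0.000274). On HFD its 4 ASKO values lay above its 4 control values, the reverse of the order of the *Fdft1* means. The part of the overlap in the *Fdft1* values was not tested.

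**Figure D2:**
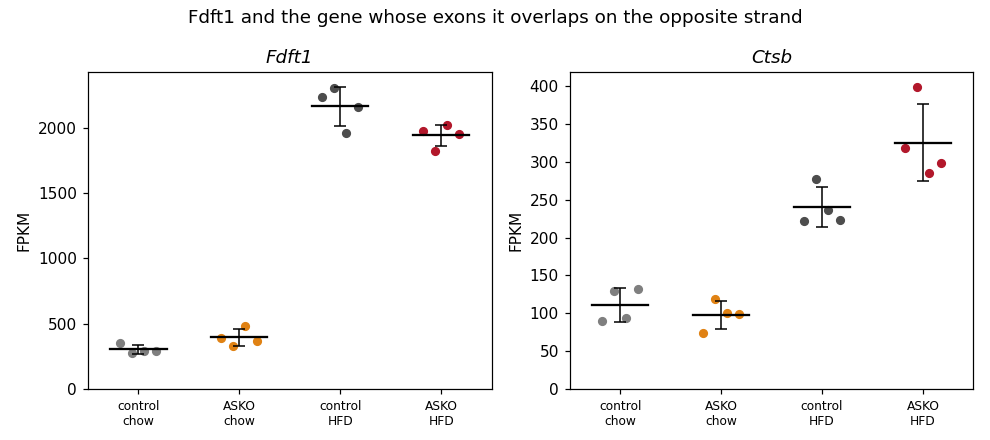
FPKM of *Fdft1* (left) and *Ctsb* (right), whose exons overlap on opposite strands, in the 4 groups (linear axes from 0); points are mice, lines the means of 4 mice and bars the SD. On HFD both genes are above their chow values in every mouse, and between the genotypes on HFD the mean is lower in *Mboat7* ASKO mice for *Fdft1* (1940 against 2162 FPKM) and higher for *Ctsb* (325 against 240 FPKM).

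*Hmgcs1* (ENSMUSG00000093930.1, chromosome 13 from 119690379 to 119708260, plus strand) encodes the cytosolic HMG-CoA synthase at the start of the mevalonate pathway. On chow it was at 26.1, 19.9, 80.6 and 49.8 FPKM in control mice and at 46.8, 74.4, 35.7 and 26.3 FPKM in *Mboat7* ASKO mice. On HFD it was at 48.4, 57.5, 109 and 50 FPKM in control mice and at 96.6, 103, 90.0 and 79.7 FPKM in *Mboat7* ASKO mice. The diets overlapped in control mice and did not overlap in *Mboat7* ASKO mice, where the lowest HFD mouse (79.7 FPKM) was just above the highest chow mouse (74.4 FPKM). The log2 fold change did not pass in control mice (0.70, standard error 0.42, limma adjusted p = 0.5), in *Mboat7* ASKO mice (1.09, limma adjusted p = 0.201, exact permutation test p = 0.0286, the smallest that 4 against 4 mice allow) or averaged (0.90, limma adjusted p = 0.0803). Without chow control mouse 2, the highest chow mouse, the averaged value was 1.07 and passed (limma adjusted p = 0.0266), and it also passed without chow ASKO mouse 1 (1.03, limma adjusted p = 0.0464). An annotated antisense gene covers 12.1% of its exon bases, and that gene is not used here.

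*Sqle* (ENSMUSG00000022351.14, chromosome 15 from 59315077 to 59331192, plus strand) encodes squalene epoxidase, a rate-limiting enzyme that oxidises squalene. It was at 21.5, 13.8, 5.85 and 18 FPKM in control mice and 28.8, 10.6, 8.59 and 19.3 FPKM in *Mboat7* ASKO mice on chow. On HFD it was at 16.5, 24.2, 25.8 and 20.8 FPKM in control mice and 32.7, 14.6, 22.7 and 31.1 FPKM in *Mboat7* ASKO mice. The diets overlapped in each genotype. The fitted difference was 0.64 in control mice, in *Mboat7* ASKO mice and averaged, and the averaged one did not pass (95% confidence interval -0.01 to 1.30, limma adjusted p = 0.268).

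*Lss* (ENSMUSG00000033105.12, chromosome 10 from 76531588 to 76557138, plus strand) encodes lanosterol synthase, which closes the sterol rings. Its values scattered between 0 and 7.16 FPKM. *Lss* shares 381 exon bases (3.5%) and its locus in the table with *4930483K19Rik* on the opposite strand, so its values are uncertain in the same way as those of *Fdft1*. That gene was at 0 to 20.9 FPKM on chow, at 0 to 13.2 FPKM in control mice on HFD and at 12.7 to 29.3 FPKM in *Mboat7* ASKO mice on HFD, and its part in the *Lss* values was not tested. On HFD it was at 1.61, 6.19, 2.5 and 0 FPKM in control mice and at 5.67, 7.16, 1.03 and 0 FPKM in *Mboat7* ASKO mice, so each genotype held a mouse listed at 0. The averaged diet difference was 0.64 (95% confidence interval -0.41 to 1.70, limma adjusted p = 0.55) and did not pass. *Idi1* (ENSMUSG00000058258.14, chromosome 13 from 8885501 to 8892451, plus strand) encodes the isomerase of the isoprenoid building blocks. It was above 0 in 2 of 8 chow mice and in 4 of 8 HFD mice, with a highest value of 3.22 FPKM, and no difference was detectable at this depth.

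*Insig1* (ENSMUSG00000045294.11, chromosome 5 from 28071363 to 28078662, plus strand) has no exon overlap with another annotated gene. On chow it was at 13.2, 11.5, 20.7 and 25 FPKM in control mice and at 47.2, 56.4, 16.8 and 19.9 FPKM in *Mboat7* ASKO mice. On HFD it was at 52.2, 49.2, 87.5 and 26.5 FPKM in control mice and at 136, 96.3, 118 and 71.8 FPKM in *Mboat7* ASKO mice. Within each genotype every HFD mouse was above every chow mouse, although control mouse 3 on HFD (26.5 FPKM) was close to control mouse 3 on chow (25 FPKM). Averaged over genotypes, the rise was 1.60 ± 0.31 on the log2 scale (standard error; limma adjusted p = 0.0029), and it passed under every alternative tried. It was 1.5 in control mice (limma adjusted p = 0.0797), which did not pass, and 1.70 in *Mboat7* ASKO mice (limma adjusted p = 0.038), which passed. The difference between these effects was 0.20 (95% confidence interval -1.10 to 1.49, limma adjusted p = 0.976), so a difference of the diet effect between the genotypes was not shown. The call in *Mboat7* ASKO mice was lost without the 2 HFD mice in which 1 row held over 30% of the values (1.87, limma adjusted p = 0.059), and also without any of 5 single mice: chow ASKO mouse 2 (1.42, limma adjusted p = 0.109) or 3 (1.5, limma adjusted p = 0.114), and HFD ASKO mouse 0 (1.56, limma adjusted p = 0.12), 1 (1.73, limma adjusted p = 0.0794) or 2 (1.63, limma adjusted p = 0.0964). Without HFD control mouse 3 the control value was 1.80 and passed (limma adjusted p = 0.0445).

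*Srebf2* (ENSMUSG00000022463.7, chromosome 15 from 82147181 to 82205379, plus strand) was at 0, 0, 0.54 and 0.718 FPKM in control mice and 0, 0, 1.07 and 0 FPKM in *Mboat7* ASKO mice on chow. On HFD it was at 2.46, 3.25, 1.25 and 1.89 FPKM in control mice and at 1.19, 0, 0.504 and 0.76 FPKM in *Mboat7* ASKO mice. Control mice on HFD were thus above every mouse of the other groups in FPKM, the lowest of them (1.25) just above ASKO mouse 0 on HFD (1.19). The diet difference was 1.30 in control mice (limma adjusted p = 0.1) and 0.37 in *Mboat7* ASKO mice (limma adjusted p = 0.742), and neither passed. Averaged it was 0.83 (limma adjusted p = 0.0852), and it passed without chow ASKO mouse 2 (0.96, limma adjusted p = 0.0395). All of these values stand for at most 5.4 fragments.

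**Figure D3:**
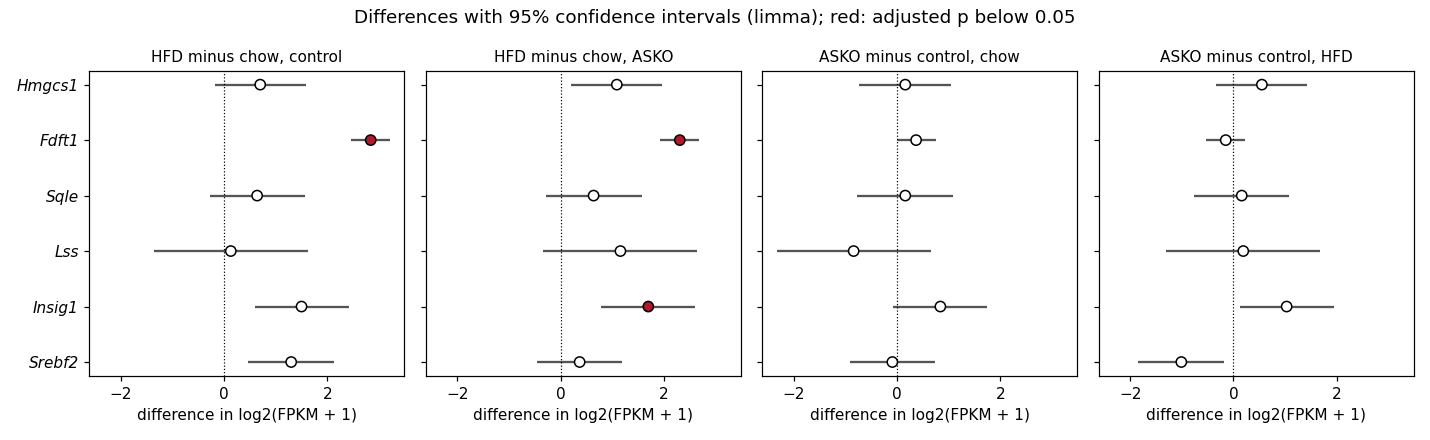
Differences in log2(FPKM + 1) of the 6 tested sterol genes with 95% confidence intervals from limma, for HFD minus chow in each genotype and for *Mboat7* ASKO minus control on each diet; red points have an adjusted p below 0.05. *Fdft1* is red in both diet panels and *Insig1* in that of *Mboat7* ASKO mice, and no point is red in the genotype panels.

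The second comparison was that of *Mboat7* ASKO with control mice, which asks whether loss of *Mboat7* from adipocytes changed these genes. None of the 6 tested genes passed in limma on chow or on HFD, where 0.00761% of all genes were called on each diet (1 gene each, on HFD *Cdk20*, named here because the count is small). At an unadjusted p below 0.05 there was 1 of 6 on chow (*Fdft1*) and 2 of 6 on HFD (*Insig1* and *Srebf2*), beside 4.8% and 5.15% of all tested genes. The fitted differences were positive for 4 of 6 genes on each diet, with medians of 0.16 on chow and 0.17 on HFD.

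On HFD *Insig1* was 1.96-fold higher in *Mboat7* ASKO mice by the ratio of means, with 3 of 4 above every control mouse. Its log2 difference was 1.03 (95% confidence interval 0.12 to 1.95, limma adjusted p = 0.914, exact permutation test p = 0.0571). On chow the ratio was 1.99, carried by mice 0 and 1 (47.2 and 56.4 FPKM), while mice 2 and 3 were within the range of the control mice. *Hmgcs1* showed the same order on HFD, with means (± SD, n = 4) of 92.4 ± 10.1 FPKM for ASKO and 66.3 ± 28.9 FPKM for control, and the ranges overlapped because control mouse 2 was at 109 FPKM (0.55, limma adjusted p = 0.992).

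*Srebf2*, the gene of the factor itself, had the opposite order on HFD. All 4 *Mboat7* ASKO mice were below all 4 control mice, with means of 0.614 ± 0.498 and 2.22 ± 0.851 FPKM (SD, n = 4) and a log2 difference of -1.01 (95% confidence interval -1.84 to -0.18, limma adjusted p = 0.901, exact permutation test p = 0.0286, the smallest that the design allows). The nearest values were 1.19 FPKM in ASKO mouse 0 and 1.25 FPKM in control mouse 2. By the steps between low values these stand for 2.2 and 2.0 fragments, so in fragments the groups overlapped. The share of all genes with such a separation was not counted. *Fdft1* was 1.30-fold higher in *Mboat7* ASKO mice on chow (0.37, limma adjusted p = 0.983) and 0.897 of the control level on HFD (-0.15, limma adjusted p = 0.993), and the HFD value turned to 0.01 under quantile normalization and under rescaling without the 10 highest rows. *Sqle* differed by 0.16 on each diet (95% confidence interval on HFD -0.76 to 1.08), and *Lss* by -0.84 on chow and 0.19 on HFD with intervals that include 0.

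None of the 6 genes passed the genotype-by-diet interaction in limma, in which 0% of all genes were called and 6.29% had an unadjusted p below 0.05. *Fdft1* was the 1 gene of the 6 at that level. Its diet effect was smaller by 0.53 in *Mboat7* ASKO mice (interaction -0.53, standard error 0.25, limma adjusted p = 0.792). It was smaller by 0.21 when rescaled without the 10 highest rows and by 0.23 with quantile normalization (interaction -0.21 and -0.23). An exact permutation of the genotypes within diets gave an unadjusted p = 0.00327. That permutation assumes no genotype effect on either diet, so it does not test the interaction alone. For *Ctsb* the diet effect was larger by 0.61 in *Mboat7* ASKO mice (limma adjusted p = 0.8). The interaction of *Srebf2* was -0.92 (95% confidence interval -2.10 to 0.25, limma adjusted p = 0.838) and that of *Hmgcs1* was 0.39 (95% confidence interval -0.85 to 1.64).

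*Hmgcs1* and *Insig1* varied together from mouse to mouse. Across the 16 mice the correlation of their log2(FPKM + 1) values was 0.85, and it was 0.76 for deviations from the group means, which removes the diet and genotype. On each measure this was the highest value among all pairs of the tested sterol genes. For deviations the next highest pair was *Fdft1* and *Srebf2* (0.53). Chow control mouse 2 stood apart, with the highest *Hmgcs1* of the chow mice (80.6 FPKM) and 20.7 FPKM of *Insig1*. Within control mice on HFD, mouse 2 was highest for both genes (109 and 87.5 FPKM), and within chow ASKO mice, mouse 1 was highest for both (74.4 and 56.4 FPKM). *Fdft1* and *Insig1* had a correlation of 0.72 over all mice and of -0.46 for deviations from the group means, and *Fdft1* and *Hmgcs1* had 0.58 and -0.38. *Sqle* was not closely tied to the other genes within groups, with correlations from -0.34 to 0.11. These values share libraries and depth, and they are given as a description.

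**Figure D4:**
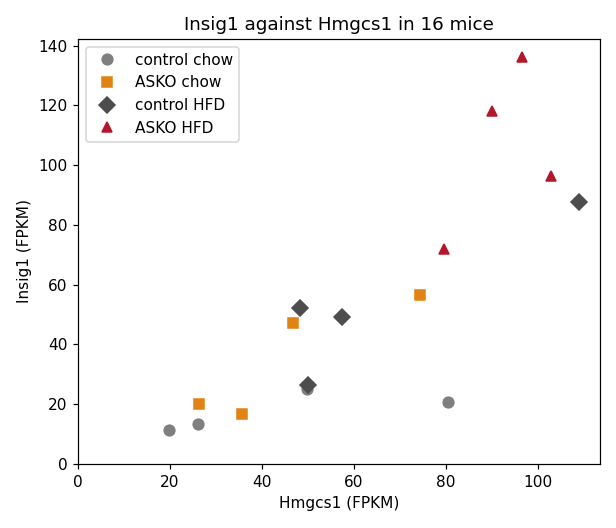
*Insig1* against *Hmgcs1* in FPKM (linear axes from 0) in the 16 mice, with 1 symbol for each group. Most mice high for 1 gene are high for the other, with chow control mouse 2 apart (80.6 FPKM of *Hmgcs1* and 20.7 FPKM of *Insig1*), from 11.5 FPKM of *Insig1* at 19.9 FPKM of *Hmgcs1* in a chow control mouse to 136 FPKM at 96.6 FPKM in a *Mboat7* ASKO mouse on HFD.

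The tested genes outside the 7 whose pattern was most like the mean of the standardised sterol genes over 16 mice were *Adam8* (Pearson correlation 0.94), *Trp53inp2* (0.93), *Hpgds* (0.91), *Slc8a1* (0.91) and *Gpnmb* (0.91). *Gpnmb*, a transmembrane glycoprotein, had group means of 1.06 and 0.385 FPKM on chow and of 73.7 and 133 FPKM on HFD, in control and *Mboat7* ASKO mice. When deviations from the group means were used, another set was nearest, namely *Cers5* (0.84), *Gm9934* (0.81), *Socs7* (0.81), *Tfap4* (0.80) and *Pik3r1* (0.80). Like *Hmgcs1* and *Insig1*, all of these were compared over the same 16 libraries. They are the extremes of a search through the 13147 tested genes without the 6 sterol genes among them, and what such a search gives by chance was not tested. Some were low, with group means of 0.31 to 1.58 FPKM for *Tfap4* and 0.943 to 1.84 FPKM for *Socs7*.

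The rest of the sterol pathway was described with lists of genes. Of 15 other sterol synthesis enzymes, 0 were called by limma in any of the 6 contrasts. Averaged over genotypes, 12 of the 15 had a positive diet difference with a median of 0.41, and 1 had an unadjusted p below 0.05, beside 19.4% of all tested genes. That gene was *Nsdhl*, a sterol dehydrogenase, which ranged from 1.56 to 19.9 FPKM on chow and from 8.71 to 38.9 FPKM on HFD (1.08, limma adjusted p = 0.164). *Cyp51*, the lanosterol demethylase, ranged from 1.49 to 8.91 FPKM on chow and from 3.09 to 10.3 FPKM on HFD (0.66, limma adjusted p = 0.346). Between the genotypes, 12 of 15 differences were positive (*Mboat7* ASKO minus control) on HFD, with a median of 0.71, and 13 of 15 on chow, with a median of 0.39, and none passed. Beside these stand medians of 0.02 and 0 over all tested genes. On each diet 1 of the 15 had an unadjusted p below 0.05, beside 5.15% of all tested genes on HFD and 4.8% on chow. This was *Msmo1* both on HFD (1.43, limma adjusted p = 0.963) and on chow (2.02, limma adjusted p = 0.875).

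Genes that process SREBP or sense sterols showed 1 call, higher, among 8 tested in the averaged diet contrast, where 4.49% of all genes were called higher. *Tmem97*, an endoplasmic reticulum protein, rose on HFD by 2.08 averaged over genotypes (limma adjusted p = 0.0253) with overlapping ranges of 0 to 10.4 FPKM on chow and 2.04 to 12.5 FPKM on HFD, and the call was lost without the 2 HFD mice with over 30% of their values in 1 row. *Insig2*, the relative of *Insig1*, was at 5.95 to 19.3 FPKM on chow and 2.18 to 18.7 FPKM on HFD (-0.68, limma adjusted p = 0.354). Of 7 genes of lipoprotein and lysosomal sterol uptake, 2 rose in that contrast, and 1 without those 2 mice, beside the same 4.49% of all genes. *Lipa*, which encodes lysosomal acid lipase, ranged from 1.88 to 5.97 FPKM on chow and from 23.8 to 64.6 FPKM on HFD without overlap (3.21, limma adjusted p = 4.7e-07). *Npc2*, a lysosomal sterol carrier, ranged from 198 to 584 FPKM on chow and from 504 to 994 FPKM on HFD (0.80, limma adjusted p = 0.0428). *Vldlr*, a lipoprotein receptor, had 0.38 (limma adjusted p = 0.466).

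On the side of storage and efflux 1 of 7 tested genes rose averaged over genotypes, beside 4.49% of all genes. *Soat1*, the enzyme that esterifies cholesterol for storage, was at 0 to 1.06 FPKM on chow and at 2.04 to 15.7 FPKM on HFD (2.49, limma adjusted p = 0.000195). *Abcg1*, a sterol exporter, had 1.43 (limma adjusted p = 0.0769). Fatty acid synthesis genes, among them known targets of the related factor SREBP-1, went the other way from the sterol genes that rose. Of these, 5 of 9 tested fell on HFD, where 3.04% of all genes were called lower, and 0 rose, with a median of -1.06. Without the 2 HFD mice with over 30% in 1 row, 4 of 9 fell. The list also holds regulators and was not chosen as a measure of SREBP-1. *Thrsp* fell by 2.31 (limma adjusted p = 0.000289), *Acaca*, which encodes acetyl-CoA carboxylase, by 2 (limma adjusted p = 0.000913), *Fasn*, the fatty acid synthase, by 1.5 (limma adjusted p = 0.0255) and *Scd1*, a desaturase, by 1.43 (limma adjusted p = 0.000941).

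**Figure D5:**
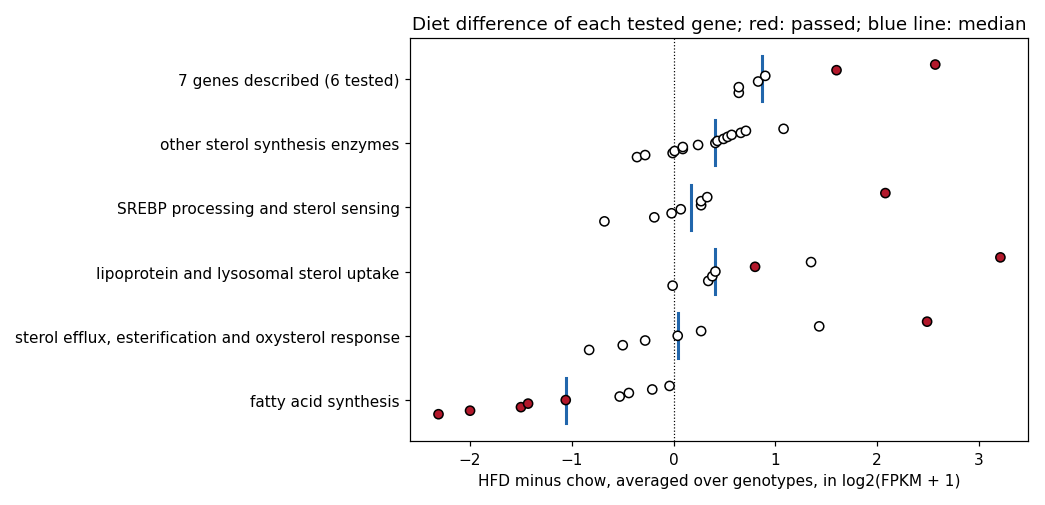
HFD minus chow, averaged over genotypes, in log2(FPKM + 1) for each tested gene of 6 lists; 1 point is 1 gene, red points passed and the blue line is the median of the list. The 6 tested sterol genes are all above 0 with 2 red points, the 15 other enzymes have none, and the fatty acid synthesis genes have 5 red points below 0.

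Markers of the cell types of the tissue moved with the diet as well, in the averaged contrast in which 4.49% of all genes were called higher and 3.04% lower. The summed level of 8 adipocyte markers was 8975 to 25695 FPKM on chow and 4164 to 9742 FPKM on HFD, and 7 of the 8 fell averaged over genotypes, or 4 of 8 without the 2 HFD mice with over 30% in 1 row and 4 to 6 under the 4 scalings tried. The sum of 8 macrophage markers was 161 to 260 FPKM on chow, 581 to 980 FPKM in control mice on HFD and 780 to 1239 FPKM in *Mboat7* ASKO mice on HFD, and 8 of 8 rose averaged over genotypes, with or without those 2 mice, among them *Itgax* from at most 0.741 FPKM on chow to 8.51 to 47.4 FPKM on HFD. The sum of 6 fibroblast and progenitor markers was 262 to 388 FPKM on chow and 346 to 583 FPKM on HFD, with 1 of 6 called higher, and that of 5 endothelial markers was 19.1 to 52.8 and 21.7 to 68.0 FPKM with 0 of 5 called. The sum of 6 mesothelial markers was 14.3 to 39.8 FPKM on chow and 0 to 12.7 FPKM on HFD, where *Lrrn4* was at 0 in all mice, and 1 of 6 was called lower, or 0 without those 2 mice. The lymphocyte (4 genes), skeletal muscle (2), epididymis (1) and brown adipocyte (2) markers in the table summed to at most 7.86, 30.6, 0.736 and 5.04 FPKM, with *Cd3d* at 0 in chow mice and *Ucp1* at 0 in all but *Mboat7* ASKO mice on HFD. The part of these cell types in the rise of *Fdft1*, *Insig1*, *Lipa* or *Soat1* was not tested.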

How the data were processed

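The authors trimmed reads, aligned them to mm10 with STAR and made FPKM values with Cufflinks; the library scaling and the strand setting are not given in the sources used here. The deposited table holds FPKM per gene and mouse (19373 rows, sums of 606407 to 982016 per mouse). Of 20 symbols on more than 1 row the highest row was kept (19353 symbols), and positions and exon overlaps came from GENCODE M21 (99.6% of IDs matched).

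Values were tested as log2(FPKM + 1) in the 13147 genes that reached 1 FPKM in 4 or more mice. The 4 groups, taken from the labels, entered 1 limma fit (3.58.1, R 4.3.3) with intensity trend and no covariates, and Benjamini-Hochberg adjustment was made separately for 6 contrasts (4 pairwise, diet averaged over genotypes, and interaction). A single gene was also compared with two-sided exact permutation tests, which go no lower than 0.0286 for 4 against 4 mice. For the interaction the genotypes were permuted within each diet (4900 combinations), under the null of no genotype effect on either diet. Whether mice shared litters or cages is not stated. The estimate of depth used the spacing of low values in 1050 genes with 1 transcript. Per mouse, 57.5% to 88.3% of them were within 0.2 of a whole step, against 40% for evenly spread values and a step fixed beforehand. Each step was chosen to fit these same values best, so the margin over 40% is overstated. Promoter sequences are from RefSeq.

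The 7 genes were proposed by name, and they, the lists and the tests were chosen with earlier results of these data known. Named genes were the 7 sterol genes, up to 4 genes per list with the smallest p in the averaged diet contrast, the 5 genes most like the 7 on each of 2 measures, and *Mboat7*; *Ctsb*, *Cdk20* and *Msmo1* were added after their values were seen. The 1 gene called between genotypes on chow is not reported here. Alternatives were no filter or 5 FPKM as the filter, a pseudocount of 0.1, upper-quartile and quantile scaling, only the groups compared, no trend, a replicate block and leaving out each mouse. Chosen after seeing the data were rescaling without the 10 highest rows, rescaling over genes with no opposite-strand exon overlap, and leaving out together the 2 HFD mice with over 30% of their values in 1 row. Python 3.11.15, pandas 2.3.3, numpy 2.4.6 and matplotlib 3.10.9 were used.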

Additional observations from a re-analysis of the deposited data

Results flagged for a closer look

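In groups of 4 mice, 1 mouse lay far from the others in 7 of the 60 groups checked. A rate of 1 in 20, which holds for continuous values, would give about 3. A mouse above 0 always counts as far where all others of its group are at 0. This was so for *Idi1* in both chow groups, *Srebf2* and *Adam7*, so the count cannot be set against that rate. *Hmgcs1* was at 109 FPKM in HFD control mouse 2, and the other HFD control mice were at 48.4 to 57.5 FPKM. *Idi1* was at 1.06 FPKM in chow control mouse 2 and at 0.916 FPKM in chow ASKO mouse 1, with all others of these groups listed at 0, and each of these values stands for about 1 fragment. *Srebf2* was at 1.07 FPKM in chow ASKO mouse 2, with the others of its group listed at 0. The macrophage marker sum was 780 FPKM in HFD ASKO mouse 2 against 1165 to 1239 FPKM in the others, and the fibroblast and progenitor sum was 388 FPKM in chow control mouse 3 against 282 to 299 FPKM. The epididymis marker in the table, *Adam7*, was at 0.736 FPKM in HFD control mouse 3 and at 0 in the others.

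The genotype difference of *Fdft1* was 0.37 on chow and -0.15 on HFD, and the interaction was -0.53 (limma p = 0.0499, adjusted p = 0.792; exact permutation of the genotypes within diets, p = 0.00327). When rescaled without the 10 highest rows, these values were 0.22, 0.01 and -0.21, and with quantile normalization 0.24, 0.01 and -0.23. The corresponding value of *Ctsb*, whose exons overlap, was 0.61 (exact permutation of the genotypes within diets, p = 0.0273). This permutation assumes no genotype effect on either diet, so neither of its p-values tests the interaction alone.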

How the results depend on the processing

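The diet calls of *Fdft1* in each genotype and the averaged diet call of *Insig1* passed under all alternatives and with each mouse left out. The *Insig1* call in *Mboat7* ASKO mice did not, so the number of sterol genes called there fell from 2 to 1 with no filter, with only the groups compared, with no trend, with the replicate block, and without the 2 HFD mice with over 30% in 1 row. With each mouse left out, the sterol genes called numbered 1 to 2 in control mice, 1 to 2 in *Mboat7* ASKO mice and 2 to 3 averaged.

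Over all genes, the diet calls in control mice fell from 383 to 255 with only the groups compared and to 234 without those 2 mice, and ranged from 257 to 419 with 1 mouse left out. In *Mboat7* ASKO mice they fell from 451 to 265 with only the groups compared and ranged from 264 to 492. The 1 call between genotypes on chow became 2 with no filter and without those 2 mice, and 0 with the 5 FPKM filter, upper-quartile scaling, the replicate block or rescaling over genes with no opposite-strand overlap (0 to 4 with 1 mouse left out). The 1 on HFD became 2 with no filter, and 0 with the 5 FPKM filter, quantile normalization, only the groups compared, the replicate block or without those 2 mice (0 to 2). The interaction went from 0 to 1 without those 2 mice (0 to 1). The cause was not tested.

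Signs turned only for differences that did not pass. *Lss* in the control diet contrast was -0.26 with a pseudocount of 0.1 and -0.32 without those 2 mice, *Srebf2* between genotypes on chow was 0.03 with quantile normalization, and *Fdft1* between genotypes on HFD was 0.01 with quantile normalization and without the 10 highest rows. With 1 mouse left out, the values ran from -0.32 to 0.63 for *Lss* (diet, control), -0.32 to 0.75 for *Lss* (genotype, HFD), -0.15 to 0.51 for *Hmgcs1*, -0.20 to 0.41 for *Sqle* and -0.35 to 0.05 for *Srebf2* (genotype, chow), and -0.10 to 0.48 for the *Insig1* interaction.

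Rescaling without the 10 highest rows moved the median of all genes to 0.17 in the *Mboat7* ASKO diet contrast, 0.14 between genotypes on HFD and 0.25 in the interaction; rescaling over genes with no opposite-strand overlap moved the first to 0.14. The share of higher genes among diet calls went from 62.1% to 76.0% and 74.0% in *Mboat7* ASKO mice, and with the second of these from 62.1% to 70.6% in control mice and from 59.6% to 70.2% averaged. Of 24 pairs of mice with the same number, the correlations of deviations ran from -0.19 to 0.15, with 1 pair over 0.1. Of 16 mice, 8 correlated best with their own number. What chance gives for this count was not tested, so it cannot decide for or against pairs. The main fit did not take the numbers as pairs. With the replicate block, *Insig1* in the *Mboat7* ASKO diet contrast was at 1.7 and did not pass (limma adjusted p = 0.0619). Apart from this and the counts above, the replicate block changed no call.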
